A study of Rattus norvegicus with 10 samples.

Results

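The proteasome genes described here are the 49 genes, of 17168 in the deposited count table, whose symbol starts with Psm, a letter from a to g and a number. Their transcripts were read by sequencing RNA from the left hippocampus in 10 male TgF-344AD rats, a transgenic Alzheimer's disease model, at 11 months of age. All 10 rats carried the transgenic genotype, labelled Tg-AD. Of these, 5 ate plain rodent chow (untreated) and 5 ate chow with 750 mg per kg of RG2833, which inhibits the histone-deacetylating enzymes HDAC1 and HDAC3, from 5 months of age for 6 months. Each library is 1 rat. The rats thus differed by diet alone as far as the labels say, and non-transgenic rats were not analysed here. The design text names ibudilast in its sentence on timing, whereas the title and each sample's treatment label name RG2833, which was followed.

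The proteasome breaks down proteins that carry ubiquitin chains. Its core particle is a barrel of stacked alpha and beta rings with the cutting sites inside, and a regulatory particle on the barrel's end recognizes, unfolds and feeds in the substrate. Under interferon, and constitutively in immune cells, the catalytic beta subunits Psmb5, Psmb6 and Psmb7 are exchanged for Psmb8, Psmb9 and Psmb10, which gives the immunoproteasome. In neurons the proteasome takes part in synaptic protein turnover, and ubiquitin-bearing aggregates are a hallmark of Alzheimer's disease.

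By role the genes were 7 of the alpha ring (Psma1 to Psma7), 7 constitutive genes of the beta ring (Psmb1 to Psmb7), the 3 immunoproteasome genes, 6 ATPases of the regulatory particle (Psmc1 to Psmc6) and 11 of its other subunits (the non-ATPase Psmd genes). Another 3 encode chaperones of the regulatory particle (Psmd5, Psmd9 and Psmd10), 5 the activators Psme1 to Psme4 and the inhibitor Psmf1, and 3 chaperones of core assembly (Psmg1, Psmg2 and Psmg4). The remaining 4 were the testis form Psma8, the thymus form Psmb11, Psma3l and Psmc3ip. Psma3l is a near copy of Psma3. Psmc3ip matches the name but encodes a meiotic recombination factor that binds Psmc3, not a subunit. All 49 passed the filter on low counts. The 14 constitutive ring genes are called the constitutive core below, and with the 17 genes of the regulatory particle they make 31 constitutive structural genes.

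Libraries held 15118203 to 18533520 expected counts. Levels are given as CPM, a gene's count relative to the size of its library, after edgeR's TMM scaling, which equalizes libraries by their trimmed mean fold, and tests are edgeR quasi-likelihood tests over 12161 genes with Benjamini-Hochberg adjustment. Markers of hippocampal neurons were present in every library, with 4 of 5 dentate granule cell and 5 of 6 pyramidal cell markers in the table. Untreated replicate 2 and RG2833 replicate 1 stood apart by their choroid plexus markers, at 7866 and 9181 summed CPM against 6.64 to 275 summed CPM in the other 8 libraries.

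No proteasome gene was called different between RG2833 and untreated rats. Of the 49 genes, 0 had an adjusted p under 0.05 with edgeR and 0 with DESeq2, where the share over all genes tested with edgeR was 0%. At an unadjusted p under 0.05 the count was 0 of 49 with each tool, against 5.66% of all genes tested with edgeR and 6.16% with DESeq2, which called 7 of 12161 genes at an adjusted p under 0.05. The CPM values of the groups overlapped in every proteasome gene (0 of 49 without overlap, against 1.00% of all genes tested). Of the 49 genes 31 had a log2 fold change below 0 and 18 above it, where 53.5% of all genes tested lay below 0. With upper-quartile scaling the split was 36 below and 13 above. The log2 fold changes ran from -0.27 (Psmb9) to 0.18 (Psmc3ip), and their median was -0.03 against -0.01 over all genes tested. Leaving out untreated replicate 3 moved the count at an unadjusted p under 0.05 to 4 of 49 (Psmc2, Psmc5, Psmd1 and Psmd11), where 14.2% of all genes tested reached it, and the smallest adjusted p among the 49 was 0.311 with edgeR.

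The intervals show how precisely each gene's difference was estimated, for each gene alone and not for all genes jointly. In the fit of all 10 libraries, for all 31 constitutive structural genes the 95% interval of each gene's fold change lay between 1.5-fold lower and 1.5-fold higher, and for all 31 it also lay within 1.3-fold either way. The widest bounds among them were -0.34 for Psmd6 and 0.37 for Psmc5 on the log2 scale. In the other edgeR fits, those with libraries left out included, 31 of 31 lay within 1.5-fold and 28 to 31 within 1.3-fold. Fold changes near 0 had no fixed sign, and leaving out single libraries turned the sign of 2 to 8 of the 49 genes. Over the 49 genes, 47 intervals lay within 1.5-fold, and the exceptions were Psmb9 and Psma8. Over all genes tested 9134 of 12161 intervals lay within 1.5-fold and 6334 within 1.3-fold.

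**Figure D1:**
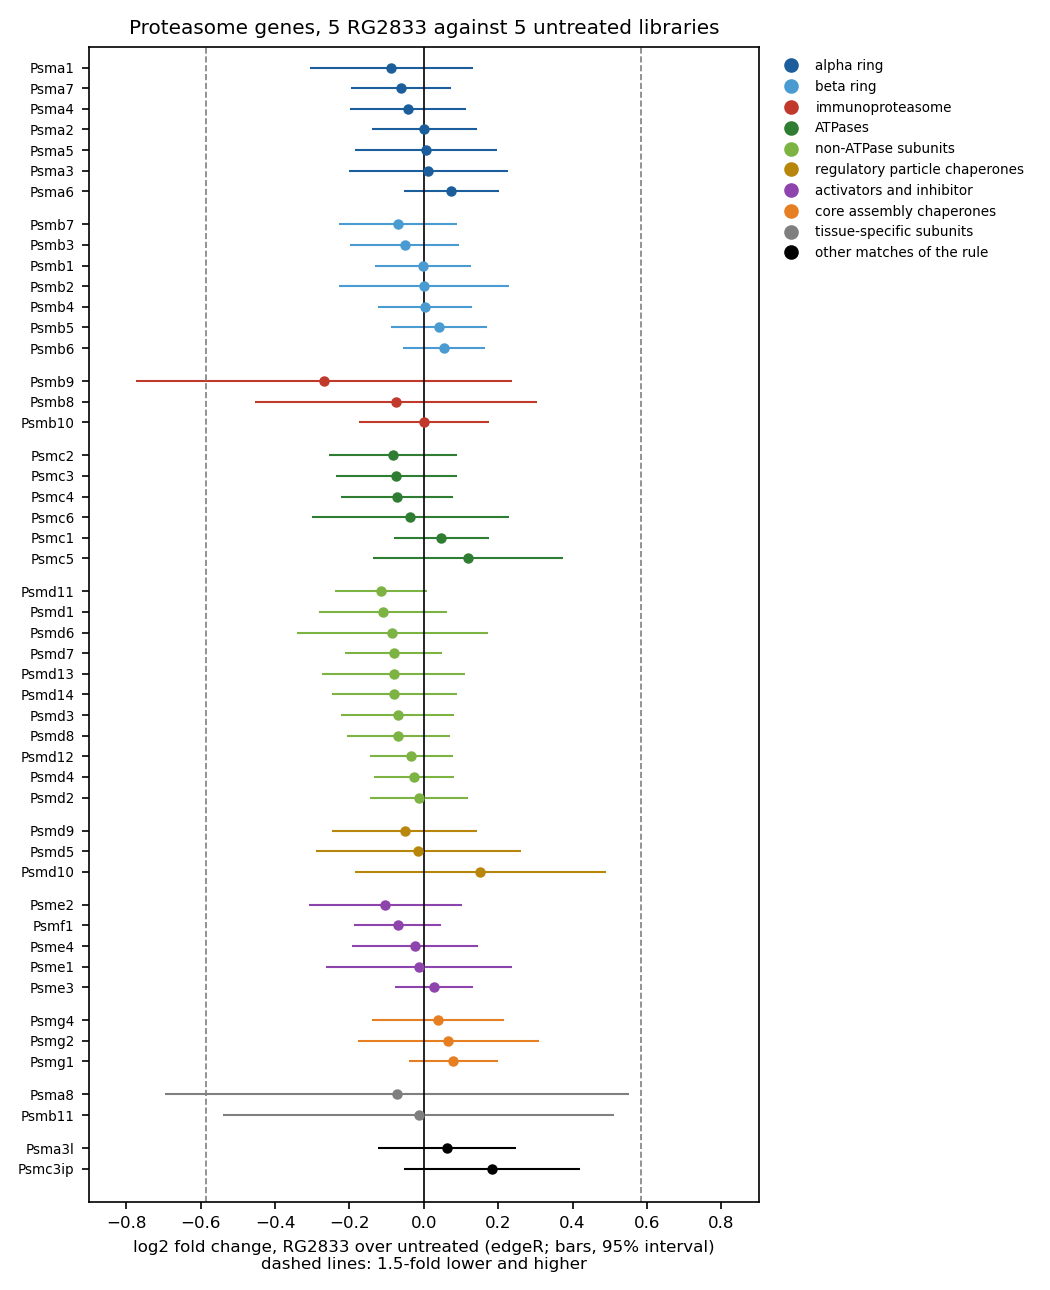
Log2 fold change of RG2833 over untreated for each of the 49 proteasome genes, by role, with the 95% interval of the edgeR fit (5 libraries a group). Dashed lines mark 1.5-fold; every interval crosses 0, and those of Psmb9 and Psma8 reach past the lower dashed line.

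The rings of the constitutive core had means on both sides of 0. Of the 14 genes 8 were higher and 6 lower in RG2833, with a median log2 fold change of 0.00093. With upper-quartile scaling 10 of the 14 were lower, and without untreated replicate 3, 11 were. In the alpha ring, which forms the gate of the barrel, Psma6 had the highest and Psma1 the lowest fold change. Psma6 was at 94.98, 90.7, 81.2, 92.6 and 96.2 CPM in untreated replicates 1 to 5 and at 98.0, 99.1, 96.5, 95.1 and 91.0 CPM in RG2833 replicates 1 to 5 (log2 fold change 0.07, SE 0.06, 95% interval -0.05 to 0.20, edgeR adjusted p = 0.904). All RG2833 values of Psma6 lay above the 2 lowest untreated values, and the groups overlapped.

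Psma1 was at 81.6, 80.0, 59.4, 72.7 and 75.2 CPM in untreated replicates 1 to 5 and at 74.2, 78.4, 69.9, 64.7 and 60.1 CPM in RG2833 replicates 1 to 5 (log2 fold change -0.09, SE 0.10, 95% interval -0.31 to 0.13, edgeR adjusted p = 0.937). Untreated replicate 3 and RG2833 replicate 5 were the lowest of their groups, at nearly the same level. Psma3 is a case where reads could be split between copies, since all expected counts of Psma3 and Psma3l were fractions. Their sum was 66.8 ± 5.56 CPM (untreated) and 68.5 ± 5.00 CPM (RG2833; n = 5 each), a difference smaller than either SD. Psma3l had from 68.1 (untreated replicate 4) to 104 (RG2833 replicate 4) counts per 100 of Psma3, so the values of the single genes are uncertain. The log2 fold changes of the other alpha genes were -0.06 for Psma7, -0.04 for Psma4, 0.0016 for Psma2 and 0.005 for Psma5. Psma2 ran from 61.1 to 72.0 CPM (median 70.8) in untreated and from 64.1 to 73.7 CPM (median 67.7) in RG2833 rats. Psma4 ran from 69.1 to 86.7 CPM (median 81.1) in untreated and from 72.5 to 84.8 CPM (median 77.5) in RG2833 rats. Psma5 ran from 47.6 to 61.3 CPM (median 59.0) in untreated and from 50.4 to 61.6 CPM (median 59.6) in RG2833 rats. In all 4 of these genes untreated replicate 3 held the lowest untreated value, as it did in Psma1 and Psma6. Psma7 ran from 100.0 to 116 CPM (median 108) in untreated and from 95.8 to 109 CPM (median 104) in RG2833 rats.

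The beta ring carries the 3 cutting activities, so its catalytic genes are given in full. Psmb5, the chymotrypsin-like subunit, was at 94.8, 98.1, 87.4, 98.5 and 103 CPM in untreated replicates 1 to 5 and at 103, 101, 99.8, 91.2 and 100.2 CPM in RG2833 replicates 1 to 5. RG2833 replicate 4 was the low value of its group and untreated replicate 3 of the other, and the groups overlapped (log2 fold change 0.04, SE 0.06, 95% interval -0.09 to 0.17, edgeR adjusted p = 0.953). Leaving out untreated replicate 3 moved the log2 fold change of Psmb5 to 0.0077, and leaving out RG2833 replicate 4 moved it to 0.07. Psmb6, the caspase-like subunit, was at 69.9, 71.9, 69.4, 71.0 and 75.7 CPM in untreated replicates 1 to 5 and at 75.4, 78.4, 74.5, 72.4 and 71.0 CPM in RG2833 replicates 1 to 5. Most values of each group lay inside the range of the other (log2 fold change 0.05, SE 0.05, 95% interval -0.06 to 0.16, edgeR adjusted p = 0.919). Psmb7, the trypsin-like subunit, was at 152, 145, 123, 139.7 and 144 CPM in untreated replicates 1 to 5 and at 140.1, 146, 135, 124 and 125 CPM in RG2833 replicates 1 to 5. Untreated replicate 3 and RG2833 replicates 4 and 5 were the 3 lowest values, all near one level (log2 fold change -0.07, SE 0.07, 95% interval -0.23 to 0.09, edgeR adjusted p = 0.923). The other 4 genes of the ring, Psmb1 to Psmb4, which hold no cutting site, had log2 fold changes from -0.05 (Psmb3) to 0.0033 (Psmb4). Psmb1 ran from 113 to 129 CPM (median 119.5) in untreated and from 112 to 131 CPM (median 119) in RG2833 rats. Psmb2 ran from 46.3 to 65.6 CPM (median 59.4) in untreated and from 52.5 to 61.0 CPM (median 59.6) in RG2833 rats. Psmb3 ran from 50.7 to 60.1 CPM (median 54.4) in untreated and from 48.8 to 57.5 CPM (median 53.1) in RG2833 rats. In all 4, untreated replicate 3 was the lowest untreated library. Psmb4 ran from 96.2 to 113 CPM (median 104) in untreated and from 98.9 to 110.4 CPM (median 103) in RG2833 rats.

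None of the 3 immunoproteasome genes was called different between the groups. Psmb8 and Psmb9 varied more between rats than Psmb5 and Psmb6, which they replace. Psmb10 varied little more than Psmb7 (coefficient of variation 8.10% against 7.57% in untreated and 8.14% against 7.13% in RG2833 rats). Psmb8 was at 4.15, 6.56, 7.22, 7.41 and 5.10 CPM in untreated replicates 1 to 5 and at 5.74, 5.57, 4.73, 6.76 and 6.09 CPM in RG2833 replicates 1 to 5. Untreated replicates 3 and 4 were highest and untreated replicate 1 lowest, and the RG2833 values lay inside the untreated range (log2 fold change -0.08, SE 0.17, 95% interval -0.45 to 0.30, edgeR adjusted p = 0.977; exact permutation p = 0.77). Without untreated replicate 4 the log2 fold change of Psmb8 was 0.0045. Psmb9 was at 4.15, 9.12, 7.58, 5.57 and 5.21 CPM in untreated replicates 1 to 5 and at 5.29, 4.88, 3.58, 6.39 and 6.16 CPM in RG2833 replicates 1 to 5. Untreated replicate 2 was high, and RG2833 replicate 3 was the lowest of all 10 (log2 fold change -0.27, SE 0.23, 95% interval -0.77 to 0.24, edgeR adjusted p = 0.915; exact permutation p = 0.365). Without untreated replicate 2 the log2 fold change of Psmb9 was -0.10. Psmb10 was at 19.4, 21.3, 24.2, 21.0 and 21.1 CPM in untreated replicates 1 to 5 and at 19.6, 22.3, 19.4, 22.7 and 23.0 CPM in RG2833 replicates 1 to 5. Its means were 21.4 ± 1.73 CPM (untreated) and 21.4 ± 1.74 CPM (RG2833), and untreated replicate 3 was highest of all 10 (log2 fold change 0.0014, SE 0.08, 95% interval -0.17 to 0.18, edgeR adjusted p = 0.999; exact permutation p = 0.984). The counts behind Psmb8 and Psmb9 were small, 72 to 128 and 56 to 178 per library, against 1449 to 1916 for Psmb5.

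**Figure D2:**
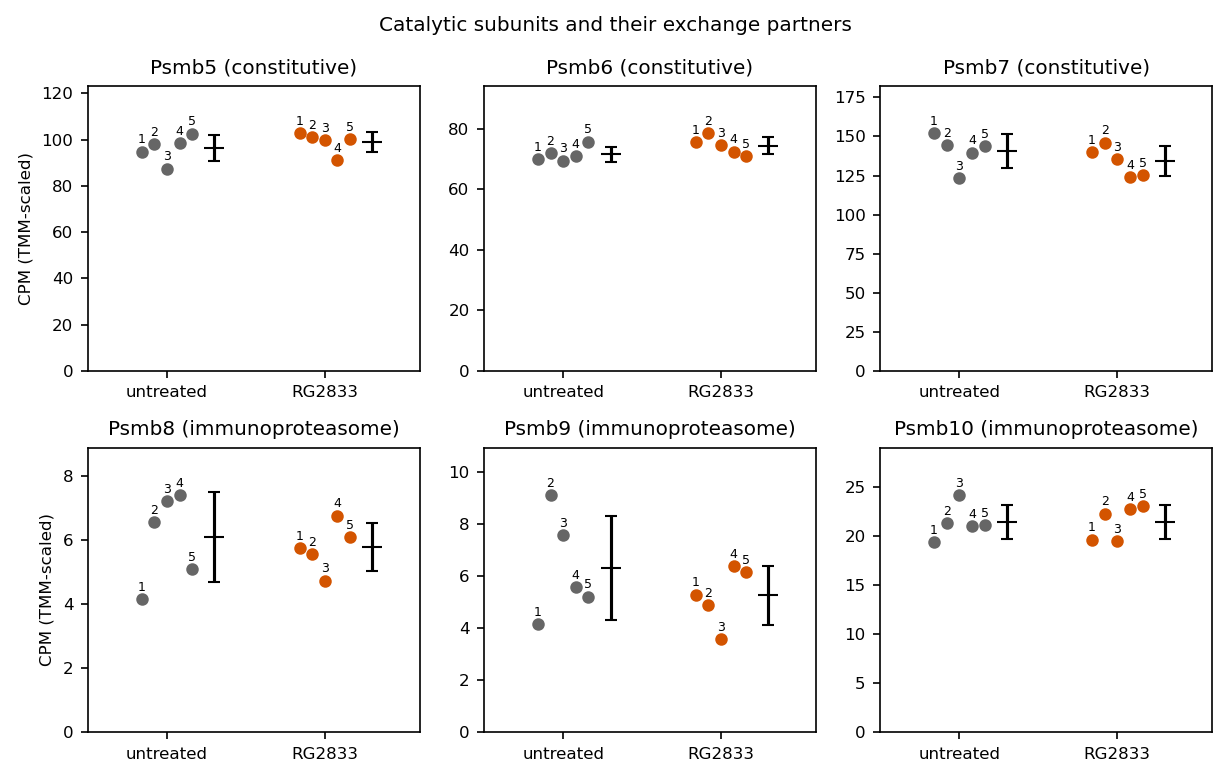
CPM of the 3 constitutive catalytic genes (top) and the immunoproteasome gene that replaces each (bottom) in 5 untreated (grey) and 5 RG2833 (orange) libraries, with the replicate number beside each point and mean ± SD in black. The groups overlap in all 6 genes; untreated replicate 3 is the lowest untreated point for Psmb5, Psmb6 and Psmb7 and the highest for Psmb10.

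The ratio of each exchange pair within a library needs no scaling between libraries. Gene lengths enter it, so it is read only between libraries. Psmb10 had 12.8, 14.7, 19.6, 15.03 and 14.7 counts per 100 of Psmb7 in untreated replicates 1 to 5 and 14.003, 15.2, 14.4, 18.3 and 18.4 in RG2833 replicates 1 to 5. Untreated replicate 3 and RG2833 replicates 4 and 5 had the 3 highest ratios, and the remaining 7 lay together below them. Psmb8 had 6.37 ± 1.65 counts per 100 of Psmb5 in untreated and 5.87 ± 0.989 in RG2833 rats. Psmb9 had 8.86 ± 2.84 and 7.11 ± 1.69 per 100 of Psmb6 (n = 5 each). In all 3 pairs the group means differed by less than the SD of the untreated rats.

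The promoters of these genes differ in the letters near the start site. RefSeq promoters on the GRCr8 assembly, 250 bases before to 50 after the start, were matched by symbol for 42 of the 47 genes that carry a role above. On both strands, TGACNNNGC, the core of the antioxidant response element that Nrf factors bind, was in 8 of 42 promoters (19.05%) and in 12.1% of all 33469 promoters. The core of the interferon-stimulated response element (GAAA, any 2 bases, GAAA) was in 7 of 42 (16.7%) and in 3.92% of all. TTCNNNGAA, the gamma-activated site, which reads the same on both strands, was in 4 of 42 (9.52%) and in 8.87% of all. Of the 31 constitutive structural genes 27 had a promoter in the table, and 6 of these held the antioxidant element and 3 the interferon element (Psma4, Psmb3 and Psmd7). Of the 3 immunoproteasome genes, 2 (Psmb8 and Psmb10) held the interferon element and 0 the antioxidant element. A match is a description of letters and not a site of binding.

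The exchange partners encode the subunits that replace each other, so 90 bases before to 10 after the start are printed for 5 of them and for the activator gene Psme2, 5′ to 3′ on each gene's strand, with matches in capitals. The capitals are the antioxidant element in Psmb5 (chr15:32047370-32047469, minus strand) and Psmb6 (chr10:55737798-55737897, plus strand). They are the interferon element in Psmb8 (chr20:4657022-4657121, minus strand), where it lies on the opposite strand, in Psmb10 (chr19:50743283-50743382, minus strand), which holds 2, and in Psme2 (chr15:33052742-33052841, minus strand). The window of Psmb9 (chr20:4668910-4669009, plus strand) held none of the 3 motifs, and neither did the promoter of Psmb7, not printed here.
Psmb5: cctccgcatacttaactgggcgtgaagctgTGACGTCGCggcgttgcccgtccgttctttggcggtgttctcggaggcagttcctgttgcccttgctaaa
Psmb6: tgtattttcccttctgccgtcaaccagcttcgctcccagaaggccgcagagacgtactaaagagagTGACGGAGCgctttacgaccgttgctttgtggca
Psmb8: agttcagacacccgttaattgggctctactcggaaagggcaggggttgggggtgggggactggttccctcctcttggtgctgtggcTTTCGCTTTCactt
Psmb9: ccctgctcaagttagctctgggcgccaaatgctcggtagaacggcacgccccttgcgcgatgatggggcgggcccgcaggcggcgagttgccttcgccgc
Psmb10: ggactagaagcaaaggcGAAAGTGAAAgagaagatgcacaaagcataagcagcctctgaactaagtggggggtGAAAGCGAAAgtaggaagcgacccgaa
Psme2: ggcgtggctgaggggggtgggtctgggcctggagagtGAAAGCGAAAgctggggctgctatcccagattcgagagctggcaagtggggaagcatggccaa

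In the regulatory particle most genes had a lower mean in RG2833, by small amounts that no test called. Of its 17 genes 15 were lower (88.2%), with a median log2 fold change of -0.07. Lower means were found in 53.5% of all genes tested and in 48.9% of the 4183 genes in the CPM range of the 31 structural genes. All 11 non-ATPase genes were among the 15 (median -0.08), from -0.11 for Psmd11 to -0.01 for Psmd2. These genes varied together between rats, so they are not 11 independent observations. Leaving out single libraries gave 10 or 11 lower of 11. Cell type markers also had lower or higher means by group. In RG2833, 0 of 8 neuronal markers were higher and 8 lower (median log2 fold change -0.11), 7 of 7 astrocyte markers tested were higher (0.32) and 6 of 6 endothelial markers tested were higher (0.26). Of the pyramidal cell markers 3 were higher and 2 lower (0.11), of the dentate granule cell markers tested 0 were higher and 3 lower (-0.04), of the microglial markers 9 were higher and 3 lower (0.07), and of the oligodendrocyte markers 2 were higher and 6 lower (-0.13). None of them had an adjusted p under 0.05 with edgeR, and 1 astrocyte marker had an unadjusted p under 0.05. Their part in the lower means of the regulatory particle was not tested, and in bulk tissue fewer cells of a type and less RNA per cell cannot be told apart.

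Psmd11, a lid subunit that bridges the lid to the core, was at 84.9, 80.9, 74.0, 80.8 and 86.9 CPM in untreated replicates 1 to 5 and at 74.3, 78.5, 73.7, 72.6 and 77.2 CPM in RG2833 replicates 1 to 5. All 5 RG2833 values lay below every untreated value except the one of replicate 3. The single-gene exact permutation p was 0.0476 before any adjustment for the number of genes, and the whole-table test did not call it (log2 fold change -0.11, SE 0.06, 95% interval -0.24 to 0.0087, edgeR adjusted p = 0.841). Psmd1, a scaffold of the base that docks ubiquitin receptors, was at 186 ± 14.5 CPM (untreated) and 172 ± 14.5 CPM (RG2833) (n = 5 each; log2 fold change -0.11, SE 0.08, 95% interval -0.28 to 0.06, edgeR adjusted p = 0.887). Psmd2, the other scaffold, was at 227 ± 12.6 CPM (untreated) and 225 ± 10.3 CPM (RG2833), a difference well inside the SD (log2 fold change -0.01, SE 0.06, 95% interval -0.14 to 0.12, edgeR adjusted p = 0.993). Psmd6, a lid subunit, had the largest coefficient of variation of the 11 in both groups, 79.3 to 114 CPM (untreated) and 82.2 to 109 CPM (RG2833; log2 fold change -0.08). The fold change of Psmd6 became -0.17 when untreated replicate 3 was left out and -0.02 when RG2833 replicate 5 was. The deubiquitinase of the lid, Psmd14, and the ubiquitin receptor Psmd4 had log2 fold changes of -0.08 and -0.03. Psmd14 ran from 57.8 to 68.8 CPM (median 68.7) in untreated and from 55.1 to 68.2 CPM (median 64.6) in RG2833 rats. Psmd4 ran from 95.6 to 107 CPM (median 97.7) in untreated and from 96.2 to 101 CPM (median 97.5) in RG2833 rats. Psmd4 was among the steadiest of the 31 structural genes, and untreated replicate 3 was not its lowest library. The other 5 non-ATPase genes had log2 fold changes of -0.07 (Psmd3), -0.08 (Psmd7), -0.07 (Psmd8), -0.03 (Psmd12) and -0.08 (Psmd13). Psmd3 ran from 133 to 158 CPM (median 148) in untreated and from 125 to 148 CPM (median 140.1) in RG2833 rats. Psmd7 ran from 119 to 134 CPM (median 125) in untreated and from 112 to 130.3 CPM (median 117) in RG2833 rats. Psmd8 ran from 80.8 to 92.7 CPM (median 90.4) in untreated and from 78.2 to 91.0 CPM (median 84.7) in RG2833 rats. The ranges of the groups overlapped in each. Psmd12 ran from 84.2 to 95.2 CPM (median 89.7) in untreated and from 83.3 to 89.1 CPM (median 87.5) in RG2833 rats. Psmd13 ran from 80.6 to 102 CPM (median 93.8) in untreated and from 76.6 to 97.3 CPM (median 90.6) in RG2833 rats.

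The 6 ATPases form the ring that unfolds the substrate, and their transcripts split into 2 patterns between rats. Psmc2, Psmc3, Psmc4 and Psmc6 had lower means in RG2833 (log2 fold changes -0.08, -0.07, -0.07 and -0.04), and Psmc1 and Psmc5 higher ones (0.05 and 0.12). Psmc5 was at 199.8, 188, 274, 224 and 209 CPM in untreated replicates 1 to 5 and at 211, 233, 208, 262 and 273 CPM in RG2833 replicates 1 to 5. Untreated replicate 3 and RG2833 replicates 4 and 5 were the 3 highest, clear of the other 7 libraries (log2 fold change 0.12, SE 0.12, 95% interval -0.14 to 0.37, edgeR adjusted p = 0.921). Leaving out untreated replicate 3 moved its log2 fold change to 0.21. It became 0.07 when RG2833 replicate 5 was left out and 0.07 when untreated replicate 2 was. Psmc2 was at 132, 130.0, 104, 126 and 133 CPM in untreated replicates 1 to 5 and at 128, 122, 119, 111 and 110.2 CPM in RG2833 replicates 1 to 5. The same 3 libraries were its 3 lowest (log2 fold change -0.08, SE 0.08, 95% interval -0.26 to 0.09, edgeR adjusted p = 0.919). Psmc6 ran from 65.8 CPM in untreated replicate 3 to 102 CPM in untreated replicate 1, and its expected counts were fractions in 9 of the 10 libraries, so its values are uncertain too. In counts, Psmc5 had 202, 200.3 and 209 per 100 of Psmc3 in those 3 libraries and 118 to 155 in the other 7, a gap that needs no library scaling. Psmc1 ran from 171 to 195 CPM (median 191) in untreated and from 179 to 199.8 CPM (median 195) in RG2833 rats. Psmc3 ran from 136 to 162 CPM (median 153) in untreated and from 130.3 to 155 CPM (median 146) in RG2833 rats. Psmc4 ran from 71.0 to 85.7 CPM (median 78.0) in untreated and from 68.7 to 79.7 CPM (median 77.3) in RG2833 rats. Psmc1 was highest in RG2833 replicates 4 and 5 and untreated replicate 3, as Psmc5 was.

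**Figure D3:**
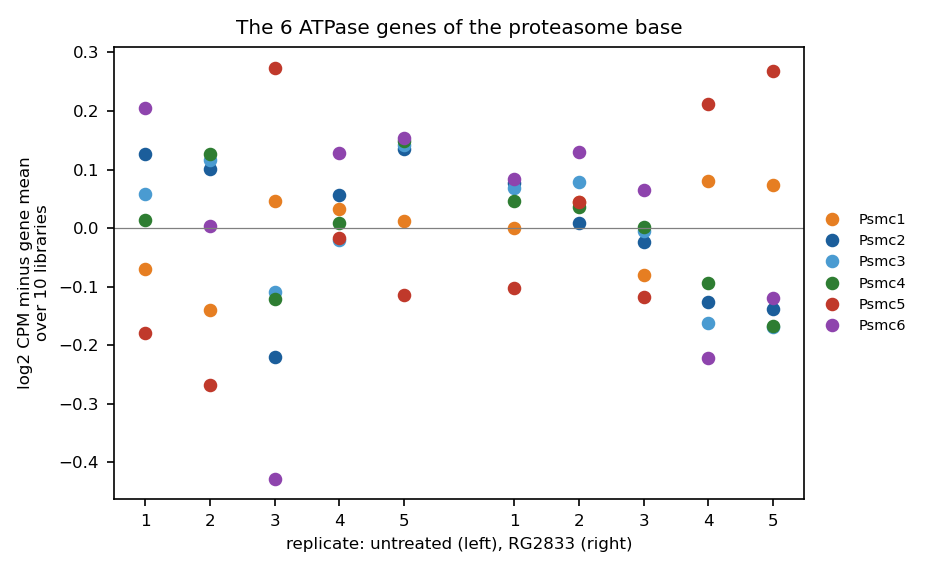
Log2 CPM of the 6 ATPase genes in each library, as the difference from the gene's mean over the 10 libraries. In untreated replicate 3 and RG2833 replicates 4 and 5, Psmc5 lies highest of the 6 and Psmc2, Psmc3, Psmc4 and Psmc6 lie below 0.

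Untreated replicate 3 and RG2833 replicates 4 and 5 were the 3 lowest of the 10 libraries for 18 of the 31 constitutive structural genes (58.1%), against 15.9% of all genes tested and 23.6% of the genes in the same range of mean CPM. These libraries were picked out after the values of these genes were seen, so the shares in this paragraph are a description. RG2833 replicate 5 was the highest RG2833 library for Psmb4. Untreated replicate 3 was the lowest untreated library for 27 of the 31 genes (87.1%), all 14 of the core among them, against 36.4% of all genes tested and 45.5% of the 4183 genes in the same range of mean CPM. The exceptions were Psmc1, Psmc5, Psmd4 and Psmd7. In the RG2833 group replicate 4 or 5 was lowest for 26 of the 31 (83.9%), against 43.9% of all genes tested and 49.1% of those in the CPM range; the exceptions were Psmb1, Psmc1, Psmc5, Psmd4 and Psmd12. As the mean difference from each gene's average over the 10 libraries, the core stood at -0.17 in untreated replicate 3 and at -0.0052 to 0.09 in the other untreated libraries, on the log2 scale. It stood at -0.09 and -0.08 in RG2833 replicates 4 and 5 and at 0.02 to 0.07 in the other 3. The regulatory particle stood at -0.10, -0.08 and -0.10 in the 3 libraries.

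Cell type markers moved with these libraries. As the mean log2 difference from each gene's average over the 10 libraries, the 3 dentate granule cell markers tested stood at -1.75 in untreated replicate 3 and at -0.08 to 0.66 in the other untreated libraries. They stood at -0.21 and -0.29 in RG2833 replicates 4 and 5 and at 0.05 to 0.54 in the other 3. The 5 pyramidal cell markers stood at -1.15 in untreated replicate 3 and at -0.39 and -0.37 in RG2833 replicates 4 and 5. In the other libraries they ran from -0.37 to 0.74. The same measure for the 8 general neuronal markers was -0.21 in untreated replicate 3. The 8 neuronal markers summed to 4778 CPM in untreated replicate 3 and 5844 to 6863 CPM in the other untreated libraries. In RG2833 replicates 4 and 5 they summed to 5158 and 5099 CPM, and in the other 3 to 5699 to 6394 CPM. The 12 microglial markers ran the opposite way, at 1188 CPM in untreated replicate 3 and 639 to 704 CPM in the other untreated libraries. They were at 902 and 967 CPM in RG2833 replicates 4 and 5 and at 687 to 781 CPM in the other 3. Of the astrocyte list 7 of 8 genes were in the table, at 7692 CPM in untreated replicate 3 and 5276 to 6311 CPM in the other untreated libraries. In RG2833 they were at 8478 and 8460.0 CPM in replicates 4 and 5 and at 5969 to 7757 CPM in the other 3. Endothelial markers, 6 of 8 in the table, ran from 255 to 495 CPM in untreated and from 299.7 to 549 CPM in RG2833 rats. The highest of each group were untreated replicate 3 and RG2833 replicate 5. Oligodendrocyte markers, 8 of 8, were spread otherwise, from 7391 to 14474 and from 8848 to 16269.5 CPM. None of the markers in the table was at 0 in all libraries. The part of these cell types in the proteasome levels was not tested.

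The immunoproteasome genes did not follow the constitutive ones. Their mean log2 difference was 0.29 in untreated replicate 3, and 0.15 and 0.09 in RG2833 replicates 4 and 5, where the core was lowest. It was 0.27 in untreated replicate 2 as well, which had the lowest microglial sum of the 10 and a high choroid plexus sum, but -0.07 in RG2833 replicate 1, whose choroid plexus sum was higher still. It was lowest in untreated replicate 1 (-0.33) and RG2833 replicate 3 (-0.33). The interferon response list, 13 of 14 genes in the table, had its lowest means in the same 2 libraries, -0.16 and -0.24, and its highest in untreated replicate 2 (0.24). Its genes were 6 higher and 7 lower in RG2833, with a median log2 fold change of -0.06. Whether microglia, choroid plexus or interferon signalling set the immunoproteasome levels was not tested. T cell and leukocyte markers summed to only 7.20 to 11.0 CPM over 6 genes.

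**Figure D4:**
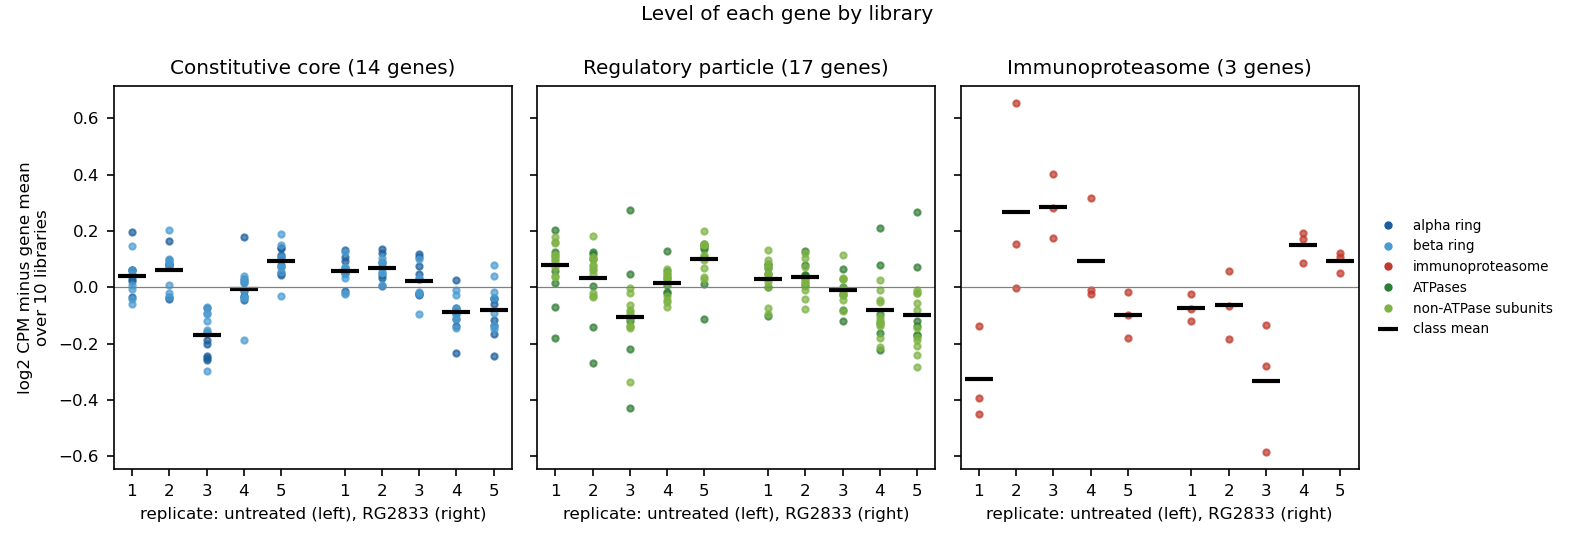
Log2 CPM of each constitutive core, regulatory particle and immunoproteasome gene (points) and the class mean (bars) in each library, as the difference from the gene's mean over the 10 libraries. Untreated replicate 3 and RG2833 replicates 4 and 5 lie below 0 for the class means of the core and regulatory particle and above 0 for the immunoproteasome.

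The constitutive genes were among the steadier transcripts of the tissue in spite of this shared variation. Within groups the median coefficient of variation was 6.92% over the 31 structural genes, 9.71% over the 4183 genes in their range of mean CPM and 13.1% over all genes tested. It was 18.99% over the 3 immunoproteasome genes, of which Psmb8 and Psmb9 had small counts. Psmb10 was at 8.10% in untreated and 8.14% in RG2833 rats. The immunoproteasome genes were not set beside other genes at their own, lower CPM. Psmc5, Psmc6, Psmd6 and Psmb2 had the widest untreated spread of the 31, 14.1% to 16.2%. Psmb6 had the narrowest, 3.46%.

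**Figure D5:**
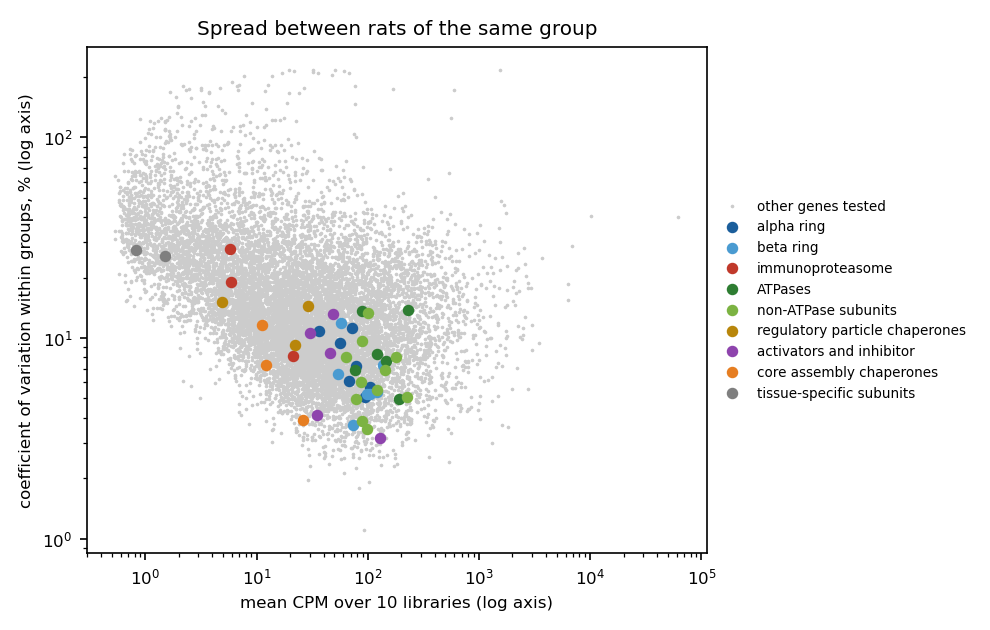
Coefficient of variation within groups against mean CPM, both on log axes, for each gene tested (grey) and for the proteasome genes by role (colours). Most constitutive structural genes lie in the lower part of the cloud, and the immunoproteasome genes Psmb8 and Psmb9 lie near 6 CPM with wider spread.

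None of the activators and the inhibitor of the barrel was called different between groups. Psme1 and Psme2 form an interferon-inducible cap of the core. Psme1 was at 39.9, 57.3, 57.0, 48.4 and 44.2 CPM in untreated replicates 1 to 5 and at 51.3, 46.8, 41.4, 53.9 and 51.2 CPM in RG2833 replicates 1 to 5. Untreated replicates 2 and 3 were highest and untreated replicate 1 lowest (log2 fold change -0.01, SE 0.11, 95% interval -0.26 to 0.24, edgeR adjusted p = 0.996). Psme2 was at 28.4, 36.1, 34.8, 25.5 and 32.03 CPM in untreated replicates 1 to 5 and at 30.3, 30.4, 27.9, 28.7 and 28.6 CPM in RG2833 replicates 1 to 5. The untreated values spread on both sides of the narrow RG2833 range (log2 fold change -0.10, SE 0.09, 95% interval -0.31 to 0.10, edgeR adjusted p = 0.919). All expected counts of Psme2 and of Psme3 were fractions, so their reads were shared with other sequences to an extent that the table does not show. Psme3, the nuclear activator, was at 128 ± 3.96 CPM (untreated) and 131 ± 4.26 CPM (RG2833) (n = 5 each; log2 fold change 0.03, SE 0.05, 95% interval -0.08 to 0.13, edgeR adjusted p = 0.962). Psme4, the large single-chain activator, was at 46.5 ± 4.69 CPM (untreated) and 45.7 ± 2.80 CPM (RG2833) (log2 fold change -0.02). The inhibitor Psmf1 was at 35.5 ± 1.47 CPM (untreated) and 33.8 ± 1.39 CPM (RG2833) (log2 fold change -0.07; exact permutation p = 0.103).

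No assembly chaperone was called different. All 3 core assembly chaperones in the table had higher means in RG2833, Psmg1 at 0.08, Psmg2 at 0.07 and Psmg4 at 0.04 on the log2 scale, though Psmg4 was below 0 without untreated replicate 2 and RG2833 replicate 1. Psmg1 was at 26.4, 26.7, 26.7, 24.5 and 24.3 CPM in untreated replicates 1 to 5 and at 27.0, 27.9, 25.8, 27.7 and 27.2 CPM in RG2833 replicates 1 to 5. All RG2833 values but that of replicate 3 lay above every untreated value, with an exact permutation p of 0.0635 before adjustment (log2 fold change 0.08, SE 0.05, 95% interval -0.04 to 0.20, edgeR adjusted p = 0.881). Pomp, which matures the beta ring and is outside the naming rule, was at 68.3 ± 3.69 CPM (untreated) and 70.7 ± 3.21 CPM (RG2833) (log2 fold change 0.05). Of the regulatory particle chaperones, Psmd10, known as gankyrin, ran from 3.22 to 5.32 CPM (untreated) and from 4.13 to 5.57 CPM (RG2833; log2 fold change 0.15). Without untreated replicate 3, its lowest library, the fold change was 0.05. Psmd9, whose expected counts were all fractions, and Psmd5 had log2 fold changes of -0.05 and -0.02.

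The tissue-specific forms were near the floor of the table. Psma8, a testis alpha subunit, had 6.86 to 19.8 expected counts per library, and Psmb11, a thymus beta subunit, 14.8 to 38.1. All of these were fractions, so reads were shared with other sequences and no expression is read from them. Psmb11 was highest in untreated replicate 3, at 2.27 CPM. Psmc3ip, no subunit, was at 5.201 ± 0.339 CPM (untreated) and 5.90 ± 0.643 CPM (RG2833) (log2 fold change 0.18).

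No gene of the wider ubiquitin and proteasome list was called different. The list holds 30 symbols, 2 of them for 1 gene (Sem1 and its older name Shfm1), of shuttles, deubiquitinases, regulators and other genes of the pathway, and 25 were in the table and tested. Of these 0 passed an adjusted or an unadjusted p under 0.05 with edgeR or DESeq2, and without untreated replicate 3 the count at an unadjusted p under 0.05 was 4 of 25 with edgeR, where 14.2% of all genes tested reached it. Among the 25, 8 were higher and 17 lower, with a median log2 fold change of -0.04. The 2 regulatory particle subunits outside the naming rule went in opposite directions, the ubiquitin receptor Adrm1 at -0.09 and Shfm1 at 0.08. The extremes were Usp14, a deubiquitinase bound to the proteasome, at -0.13 (SE 0.15), and the shuttle factor Ubqln4 at 0.26 (SE 0.17). Nfe2l1, the factor that induces proteasome genes when the proteasome is blocked, was not analysed here. Its relative Nfe2l2 stood at 0.12 (SE 0.13).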

How the data were processed

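The authors deposited RSEM expected counts per gene, estimates that need not be whole (11.6% of values were not). They also deposited a TMM-scaled CPM signal, from which whole reads were recovered. Within 0.01 reads, 100% of its values above 0 were whole, and 100% of the reads equalled the rounded expected counts. The submitters' processing notes name bcl2fastq 2.17, Bowtie2 2.1.0, RSEM 1.2.15, edgeR and the build rn6; the annotation is not given in the sources used here.

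Expected counts were rounded and analysed in R 4.3.3 with edgeR 4.0.16 (filterByExpr, minimum count 10 and total 15; TMM; robust quasi-likelihood F test; group as the only term). This tested 12161 of 17168 genes (70.8%) across all genes in 1 fit. Standard errors came from the F statistic. Exact permutation tests were two-sided over 252 regroupings of log2 CPM (prior count 2), with a smallest p of 0.00794. Differences from gene means used log2(CPM + 0.5). DESeq2 1.42.0 was an alternative. The fits were tested on simulated data. Intervals cover the spread between these rats.

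Members and gene lists were chosen with earlier results of these data known. The genes named were the catalytic beta genes, activators, Psmf1, Psmg1 and Pomp, the highest and lowest fold change of each role, and any gene past an unadjusted p of 0.05. Psma3, Psma3l, Psma8, Psmb11, Psmc1, Psmc3ip, Psmc6, Psmd1 and Psmd6, and the other genes given a value, were named after their values were seen. Levels were not compared between genes, since no transcript lengths were used here. Psmg3 was not analysed here, and the values of some genes of the wider list are not reported here. Only promoters come from GRCr8, whose build differs from rn6. Promoters of Psma7, Psmb11, Psmd6, Psmd12 and Psmd14 were not matched.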

Additional observations from a re-analysis of the deposited data

Results flagged for a closer look

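In each group of 5, the highest and lowest value of every proteasome gene was compared with its nearest neighbour, and a gap over 0.71 of the group's range was noted. Of 98 sets of 5 values, 3 had such a gap, where chance gives about 4.9. Psmc2 was at 104 CPM in untreated replicate 3, below the 126 to 133 CPM of the other untreated libraries. Psmb11 was at 2.27 CPM in the same library, above 1.18 to 1.41 CPM. Psmb5 was at 91.2 CPM in RG2833 replicate 4, below the 99.8 to 103 CPM of the other RG2833 libraries.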

How the results depend on the processing

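No proteasome gene reached an adjusted p under 0.05 in any alternative run, namely other size factors, upper-quartile scaling, no filter, a stricter filter, DESeq2, a replicate block, recovered reads, leaving out both libraries rich in choroid plexus RNA, and leaving out each library. Over all genes DESeq2 called 7, against 0 with edgeR. The number of proteasome genes at an unadjusted p under 0.05 was 1 (Psmd11) with upper-quartile scaling, where 5.42% of all genes reached it, and 0 to 4 over the 10 fits that left out a library, the 4 being without untreated replicate 3. Over those 10 fits the median log2 fold change ran from -0.048 to 0.027 for the constitutive core, from -0.11 to -0.036 for the regulatory particle and from -0.18 to -0.0054 for the immunoproteasome. Upper-quartile scaling put 36 of the 49 genes lower in RG2833, against 31 with TMM. Signs of small fold changes turned, and the cause was not tested. Upper-quartile scaling turned 5 of the 49 genes (Psma2, Psma5, Psmb2, Psmb4 and Psmb10), each within 0.00497 of 0 with TMM, and leaving out single libraries turned 2 to 8 of the 49. DESeq2, other size factors and no filter each turned Psmb1, and leaving out both libraries rich in choroid plexus RNA turned 7, Psma5 and Psmb4 among them. With upper-quartile scaling Psmb10 was at -0.0055. Without the libraries rich in choroid plexus RNA, Psme1 was at 0.021, Psmg4 at -0.0022, Psma3 at -0.036, Psma8 at 0.014 and Psmb11 at 0.021. With single libraries left out, ranges that crossed 0 included -0.045 to 0.070 for Psma3, -0.25 to 0.032 for Psma8, -0.18 to 0.0045 for Psmb8, -0.032 to 0.049 for Psmb10, -0.092 to 0.18 for Psmb11, -0.13 to 0.016 for Psmc6, -0.040 to 0.0081 for Psmd2, -0.099 to 0.0043 for Psmd9, -0.081 to 0.046 for Psme1, -0.059 to 0.037 for Psme4 and -0.0096 to 0.076 for Psmg4. Signs of Psma2, Psma5, Psmb1, Psmb2, Psmb4, Psmd4 and Psmd5 also turned in at least 1 of these fits. Ranges that kept their sign but moved by over 1.5 times were -0.15 to -0.037 for Psma1, 0.021 to 0.12 for Psma3l, 0.035 to 0.095 for Psma6, 0.0077 to 0.071 for Psmb5, 0.035 to 0.077 for Psmb6, -0.11 to -0.039 for Psmb7, -0.39 to -0.098 for Psmb9, 0.019 to 0.072 for Psmc1, -0.14 to -0.057 for Psmc2, 0.065 to 0.21 for Psmc5, -0.16 to -0.064 for Psmd1, -0.17 to -0.024 for Psmd6, 0.050 to 0.22 for Psmd10, -0.17 to -0.048 for Psme2, 0.015 to 0.043 for Psme3 and 0.023 to 0.073 for Pomp. Among the fits that left out a single library, Pomp at 0.023, Psma6 at 0.035 and Psmc2 at -0.14 moved so far only without untreated replicate 3. Psmd1 at -0.064 did so only without RG2833 replicate 5. Leaving out both libraries rich in choroid plexus RNA moved Pomp further, to 0.016. Reads recovered from the authors' scaled CPM gave 0 calls over all genes with edgeR, and 688 at an unadjusted p under 0.05, as the rounded expected counts did. Same-numbered rats of the groups did not deviate together (r from -0.49 to -0.034 over 5 pairs, and 0 of 10 libraries correlated best with its own number). With the replicate block 0 proteasome genes passed at an adjusted or an unadjusted p under 0.05, and 401 of all genes had an unadjusted p under 0.05, against 688 without it. Psmb8, Psmb9, Psmd10 and the tissue-specific forms had both low counts and wide intervals, and the part of depth in these was not tested.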
